A study of Homo sapiens with 9 samples.

Results

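The genes described here make, load and switch on MHC class I, the surface complex that shows peptides from inside a cell to cytotoxic T cells. They were chosen by name, with earlier results of these data known, as 9 of the 38478 gene rows measured. HLA-B, HLA-C and HLA-E are heavy chains, B2M is the light chain, TAP1 and TAP2 are the peptide transporter, and TAPBP is tapasin. PSMB9 is a catalytic subunit of the immunoproteasome, and NLRC5 is the activator of class I transcription. 7 of the 9 had enough reads to be tested, among 13262 tested genes, while TAP1 and PSMB9 did not.

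Polyadenylated RNA of OPM-1, a human multiple myeloma cell line, was sequenced in 9 libraries. The cells carried stably expressed targeting RNAs in 3 combinations, with 3 independent biological replicates each: gFBXW7 + gKMT2D, gFBXW7, and gLuc, whose RNA targets luciferase and which served as the control. FBXW7 is the substrate receptor of a ubiquitin ligase, and KMT2D is a histone methyltransferase that marks enhancers. All groups shared the OPM-1 background, which the labels call wild type, and growth in RPMI with fetal bovine serum, with no further treatment. The labels do not state how the RNAs act, whether the cells were clones or pools, or how long they were grown, and no group carried gKMT2D alone.

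Class I heavy chains fold in the endoplasmic reticulum, pair with B2M and wait in a peptide loading complex held together by tapasin. Proteasomes cut proteins into peptides, the TAP pair pumps them into the endoplasmic reticulum, and only loaded complexes travel to the surface. NLRC5 acts at class I promoters through a complex of RFX, CREB and ATF, and NF-Y factors bound to the X and Y boxes, and interferon acts partly through IRF1. CIITA acts through the same complex at class II genes. In myeloma, as in other tumours, class I on the surface marks cells for T cells and restrains natural killer cells.

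The 200 bases before the RefSeq start sites are printed for 5 tested members, to show where exact letters of elements of the shared class I switch occur. They were taken from RefSeq on GRCh38.p14, where 7 of the 9 members matched and HLA-E and NLRC5 did not. Gene spans given below are from GENCODE v29 and can begin further upstream. The TAPBP window lies wholly inside the GENCODE span of its gene. Capitals mark matches, on either strand, to 5 short motifs: GAAGTGAAA, the class I form of the interferon response element; GAAANNGAA, a tandem form of it; GGGATTCCC, an NF-kB element; TGACGC, the X2 core bound by CREB and ATF; and CCAAT, the Y box core bound by NF-Y. Overlapping GAAANNGAA matches in B2M and TAPBP are merged into 1 run of capitals. The windows are chr6:31357180-31357379 on the minus strand for HLA-B, chr6:31272093-31272292 on the minus strand for HLA-C, chr15:44711317-44711516 on the plus strand for B2M, chr6:32838740-32838939 on the minus strand for TAP2 and chr6:33314079-33314278 on the minus strand for TAPBP, all written 5′ to 3′.
HLA-B: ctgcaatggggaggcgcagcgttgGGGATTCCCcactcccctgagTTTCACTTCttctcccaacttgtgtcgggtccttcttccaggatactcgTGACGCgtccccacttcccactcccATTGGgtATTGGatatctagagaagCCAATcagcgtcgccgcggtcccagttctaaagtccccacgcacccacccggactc
HLA-C: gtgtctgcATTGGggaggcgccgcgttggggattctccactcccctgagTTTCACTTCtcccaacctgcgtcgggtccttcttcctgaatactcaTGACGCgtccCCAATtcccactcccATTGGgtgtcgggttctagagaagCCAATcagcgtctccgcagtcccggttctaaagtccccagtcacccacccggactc
B2M: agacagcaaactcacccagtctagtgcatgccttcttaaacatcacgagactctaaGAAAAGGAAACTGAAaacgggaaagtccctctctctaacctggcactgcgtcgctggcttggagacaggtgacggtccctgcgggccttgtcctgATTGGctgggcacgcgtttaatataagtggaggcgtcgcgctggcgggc
TAP2: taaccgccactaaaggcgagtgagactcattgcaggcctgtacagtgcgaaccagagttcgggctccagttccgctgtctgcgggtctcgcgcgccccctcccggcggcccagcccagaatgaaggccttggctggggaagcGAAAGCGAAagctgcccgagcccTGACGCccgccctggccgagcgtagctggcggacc
TAPBP: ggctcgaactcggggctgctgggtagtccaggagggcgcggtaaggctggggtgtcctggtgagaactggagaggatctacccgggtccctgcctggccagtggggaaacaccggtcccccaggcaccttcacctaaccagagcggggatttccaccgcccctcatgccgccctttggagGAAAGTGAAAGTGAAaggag

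The HLA-B and HLA-C windows were near copies, with 179 of 204 aligned positions the same (87.7%), against 42.3% between HLA-B and B2M. Both held GAAGTGAAA, TGACGC and CCAAT, and of this pair HLA-B alone held GGGATTCCC. B2M held 2 overlapping GAAANNGAA matches and 1 CCAAT, and TAP2 held 1 GAAANNGAA and 1 TGACGC. TAPBP held 2 overlapping GAAANNGAA matches close to its RefSeq start. Among 35116 windows of the same length, GAAGTGAAA was found in 0.373%, GAAANNGAA in 5.44%, GGGATTCCC in 0.282%, TGACGC in 6.67% and CCAAT in 28%. A match describes letters and not a bound site. Only exact letters were searched, so a window without a match may still hold a variant of that element.

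The libraries held 16337492 to 27076242 counted reads. All 10 plasma cell markers looked up were present, among them SDC1 at 239 to 386 CPM and JCHAIN at 7760 to 13558 CPM, and of 18 markers of other cells NKG7, EPCAM, KRT8 and COL1A2 had no read. The highest of those 18 was HBB, at 21.8 to 43.7 CPM. CPM values, counts relative to the library total, follow TMM scaling throughout, which adjusts that total for the composition of the library. The targeted transcripts were measured in every library. FBXW7 had 46, 45.2 and 71.6 CPM in gFBXW7 + gKMT2D cells and 53.3, 55.5 and 54.7 CPM in gFBXW7 cells, against 53.8, 47.9 and 48.7 CPM in gLuc cells. KMT2D had 48, 107 and 28.6 CPM in gFBXW7 + gKMT2D cells, against 48.7, 65.1 and 59 CPM in gFBXW7 cells and 40.9, 58.3 and 104 CPM in gLuc cells. Neither passed the test in any comparison (adjusted p from 0.9 to 1), and an mRNA level need not report on a disrupted protein, so these values do not check the labels. The third gFBXW7 + gKMT2D library stood apart from the other 8, with the lowest TMM factor (0.854) and the highest ribosomal protein share (11.2% of reads). Without it, the log2 fold change turned sign in gFBXW7 + gKMT2D against gLuc for HLA-C (-0.04), HLA-E (-0.14), B2M (-0.06) and NLRC5 (0.006), and in gFBXW7 + gKMT2D against gFBXW7 for HLA-E (-0.295), B2M (-0.19), TAP2 (-0.16) and NLRC5 (0.13).

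The deposited table measures the MHC region of chromosome 6 differently from the rest of the genome, and 7 of the 9 members lie there. The gene length listed by the authors was compared with GENCODE v29 exon bases for 147 protein-coding genes between GABBR1 and KIFC1. It was a median of 4.99 times those bases, against 0.916 for 18538 protein-coding genes outside this region, the rest of chromosome 6 included. It was 7.71 times for TAP2, 6.4 for HLA-E, 5.24 for TAP1, 4.42 for HLA-C, 4.04 for TAPBP, 3.31 for HLA-B and 2.73 for PSMB9, and 0.63 for B2M on chromosome 15 and 0.62 for NLRC5 on chromosome 16. No read was counted in any library for 59 of the 147 genes (40.1%), against 15.8% of the genes outside the region. Genes that most cells use were among those near 0: over all 9 libraries together RPS18, a ribosomal protein gene, had 35 reads, TUBB had 89, CLIC1 had 1 and MRPS18B had 0. These were named after their values were seen. The median of 30 other RPS genes was 146697 reads, although RPS9 on another chromosome had 9. The authors' annotation and their handling of reads that match several copies are not given in the sources used here, and the part these play was not tested. A class I gene listed near 0 is therefore not shown to be silent.

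**Figure D1:**
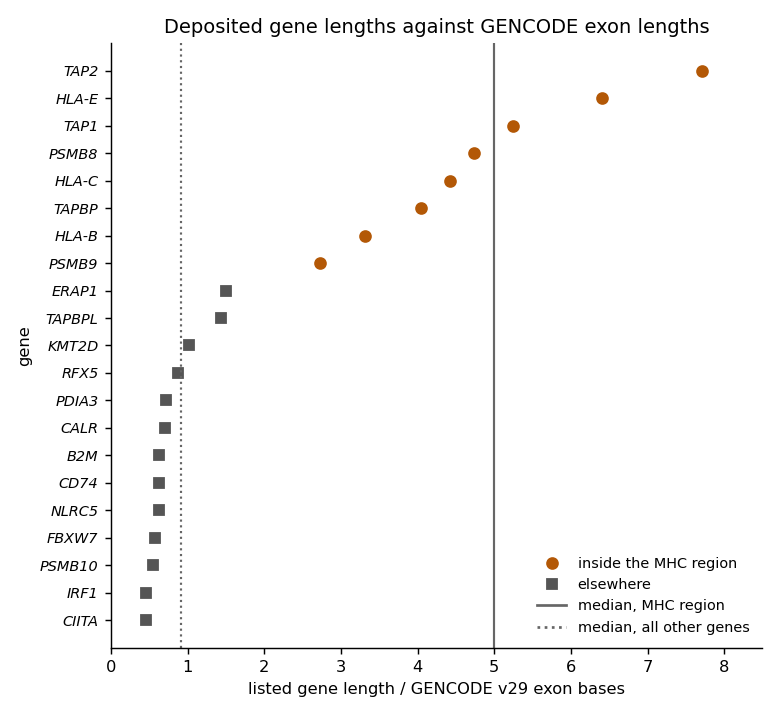
Gene length listed in the deposited table divided by GENCODE v29 exon bases (x axis) for each gene named (y axis), circles inside the MHC region and squares elsewhere. The 8 MHC genes shown lie between 2.73 and 7.71, the other 13 between 0.46 and 1.5. The medians are 4.99 for the MHC region and 0.916 for protein-coding genes outside it.

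As counted, HLA-B, HLA-C and B2M were the most abundant of the 9 genes, and the other members were far lower. Genes of the pathway outside the members reached similar levels: CALR averaged 742 to 895 RPKM in the 3 groups, PDIA3 137 to 149 and PSMB10 133 to 156. Per kilobase of listed length, the deposited RPKM of B2M averaged 715 ± 110 in gFBXW7 + gKMT2D cells, 741 ± 60.5 in gFBXW7 cells and 689 ± 68.6 in gLuc cells (SD, n = 3 each). HLA-B followed at 117 ± 14.7 RPKM in gFBXW7 + gKMT2D cells, 149 ± 10.8 in gFBXW7 cells and 127 ± 23.2 in gLuc cells. HLA-C had 70.3 ± 9.6 RPKM in gFBXW7 + gKMT2D cells, 83.6 ± 7.73 in gFBXW7 cells and 71.3 ± 10.5 in gLuc cells. HLA-E, NLRC5, TAPBP and TAP2 averaged between 1.06 and 5.7 RPKM in every group. On the GENCODE exon length the order changed: HLA-B and B2M came level, at 400 ± 89.1 and 472 ± 126 CPM per kilobase in gFBXW7 + gKMT2D cells, 496 ± 48.2 and 470 ± 46.5 in gFBXW7 cells, and 413 ± 95.9 and 427 ± 60.5 in gLuc cells. HLA-C was next on that scale at 309 to 371 in the 3 group means, followed by HLA-E at 32.7 to 36.9, TAP2 at 8 to 9.63, TAPBP at 5.56 to 6.26 and NLRC5 at 2.53 to 3. On the GENCODE scale the ranges of HLA-B and HLA-C overlapped in gFBXW7 + gKMT2D and gLuc cells but not in gFBXW7 cells. Mean TAP2 was above mean TAPBP on it and below it in RPKM in every group, so the order of neighbours depends on the length used. The counts are uncertain as well, since many genes inside the MHC region had few or no reads. Levels of HLA-B, HLA-C, HLA-E, TAP2 and TAPBP are therefore not shown to be comparable with those of genes outside it. This holds on either length, for B2M and NLRC5 as for CALR, PDIA3 and PSMB10.

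None of the 7 tested members was called between any pair of groups, and each member's ranges overlapped in all 3 comparisons. The comparison of gFBXW7 + gKMT2D with gLuc asks what both RNAs together change, that of gFBXW7 + gKMT2D with gFBXW7 what the KMT2D RNA adds, and that of gFBXW7 with gLuc what the FBXW7 RNA alone changes. The comparisons share libraries pairwise, so their fold changes are not independent. By edgeR's quasi-likelihood test at an adjusted p of 0.05, 0.0528% of all tested genes were called in gFBXW7 + gKMT2D against gLuc, 0.0603% in gFBXW7 + gKMT2D against gFBXW7 and 0% in gFBXW7 against gLuc. At an unadjusted p of 0.05 these comparisons had 479, 560 and 209 genes, with 0 members among them, and DESeq2 called 24, 32 and 1 genes, also with 0 members. Groups did not overlap for 6.97%, 9.55% and 8.86% of all tested genes, in the same order, and for 0 of the 7 members each time. Counts this near the background say nothing particular about the members.

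**Figure D2:**
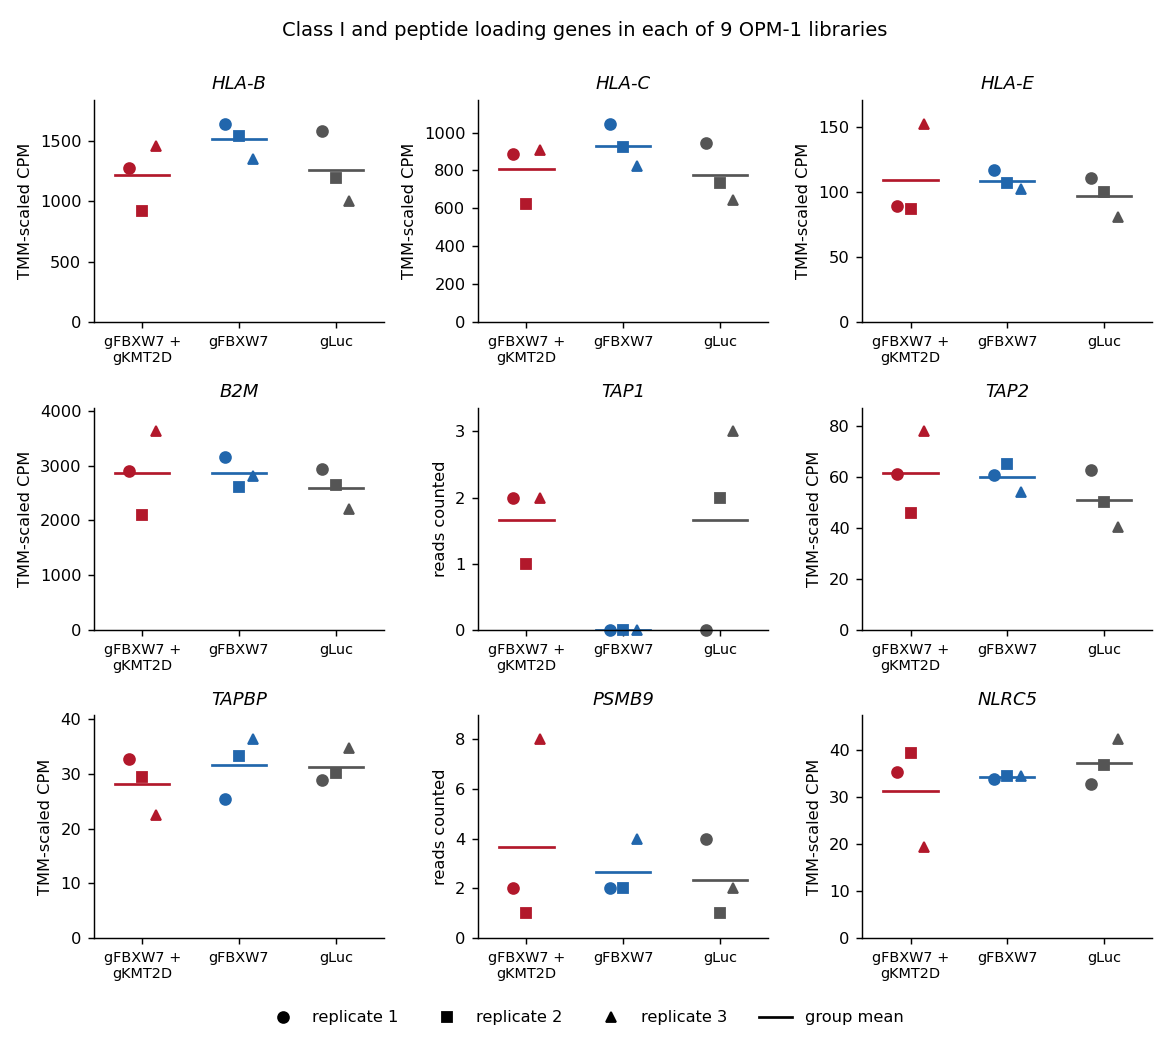
Levels of the 9 genes in each library, as TMM-scaled CPM or, for TAP1 and PSMB9, as reads counted (y axes, from 0), by group (x axis), with group means as lines. In all 7 tested genes the 3 groups overlap, and the third gFBXW7 + gKMT2D library is the highest for B2M, HLA-E and TAP2 and the lowest for TAPBP and NLRC5.

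Of the heavy chains as counted, HLA-B and HLA-C were far above HLA-E. HLA-B (GENCODE v29 on GRCh38, chr6:31269491-31357188, minus strand), which presents peptides to T cells, had 1278, 923 and 1457 CPM in gFBXW7 + gKMT2D cells, 1644, 1541 and 1354 CPM in gFBXW7 cells, and 1579, 1198 and 1004 CPM in gLuc cells. The gFBXW7 libraries were all above the gLuc median, and the second gFBXW7 + gKMT2D library was the lowest of the 9. The log2 fold change of HLA-B was -0.31 (SE 0.22, 95% interval -0.81 to 0.19, adjusted p = 1) in gFBXW7 + gKMT2D against gFBXW7, and -0.05 (SE 0.22, adjusted p = 0.97) against gLuc. In gFBXW7 against gLuc it was 0.26 (SE 0.22, adjusted p = 0.96). HLA-C (chr6:31268749-31272130, minus strand), a classical heavy chain that is also a ligand of natural killer cell receptors, had 888, 621 and 908 CPM in gFBXW7 + gKMT2D cells, 1047, 922 and 825 CPM in gFBXW7 cells, and 944, 736 and 645 CPM in gLuc cells. Its libraries fell in nearly the order of those of HLA-B, with the second gFBXW7 + gKMT2D library again the lowest. Its log2 fold changes were -0.21 (SE 0.21) in gFBXW7 + gKMT2D against gFBXW7, 0.06 (SE 0.21) in gFBXW7 + gKMT2D against gLuc and 0.265 (SE 0.21) in gFBXW7 against gLuc.

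HLA-E (chr6:30489467-30494205, plus strand), which binds leader peptides of other class I chains and is read by an inhibitory receptor of natural killer cells, had 89.3, 87.1 and 153 CPM in gFBXW7 + gKMT2D cells, 117, 107 and 103 CPM in gFBXW7 cells, and 111, 100 and 81.4 CPM in gLuc cells. One gFBXW7 + gKMT2D library was the highest of the 9, while the other two were below every gFBXW7 library. The log2 fold change was 0.17 (SE 0.22) in gFBXW7 + gKMT2D against gLuc, and -0.14 without the third gFBXW7 + gKMT2D library. Reads of the heavy chains are partly shared: of the 50-base words in GENCODE transcripts, 2.72% of HLA-B, 5.38% of HLA-C and 4.34% of HLA-E occur in other genes, and the HLA-B and HLA-C annotations overlap on the same strand, so single heavy chain values are uncertain. Of 13 other class I and class I-like heavy chains listed, HLA-G, HLA-H, HLA-J, MICB and MR1 passed the filter, and 0 of these 5 were called in any comparison.

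B2M (chr15:44711487-44718877, plus strand), the light chain of all these molecules, had 2893, 2093 and 3621 CPM in gFBXW7 + gKMT2D cells, 3164, 2605 and 2812 CPM in gFBXW7 cells, and 2938, 2641 and 2207 CPM in gLuc cells. The gFBXW7 + gKMT2D libraries held both the lowest and the highest of the 9 values. Its log2 fold change was 0.14 (SE 0.22, 95% interval -0.35 to 0.64) in gFBXW7 + gKMT2D against gLuc, 0.004 (SE 0.22) against gFBXW7, and 0.14 (SE 0.22) in gFBXW7 against gLuc. B2M lies outside the MHC region and shares 0 of its 50-base words with other genes.

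The ratio of HLA-B to B2M reads, which needs no scaling between libraries, was 0.442, 0.441 and 0.403 in gFBXW7 + gKMT2D cells, 0.52, 0.592 and 0.482 in gFBXW7 cells, and 0.537, 0.453 and 0.455 in gLuc cells. All 3 gFBXW7 + gKMT2D libraries were below the other 6, the nearest values being 0.442 and 0.453. Of single tested genes, 6.97% did not overlap in gFBXW7 + gKMT2D against gLuc and 9.55% against gFBXW7. How often ratios of other gene pairs separate in this way was not computed, so the separation is not shown to be particular to this pair. The mean log2 ratio was -1.22 ± 0.08 in gFBXW7 + gKMT2D cells, -0.92 ± 0.15 in gFBXW7 cells and -1.06 ± 0.14 in gLuc cells (SD, n = 3 each). The differences were -0.31 against gFBXW7 and -0.17 against gLuc, each with a two-sided exact permutation p = 0.1, the smallest this test can give here, and 0.15 after adjustment over 3 comparisons. Without the first gLuc library the difference against gLuc was -0.09. In gFBXW7 against gLuc the difference was 0.14 (exact permutation p = 0.3), with 0.06 without the second gFBXW7 library and 0.22 without the first gLuc library. An exact permutation of 3 libraries against 3 cannot reach 0.05.

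**Figure D3:**
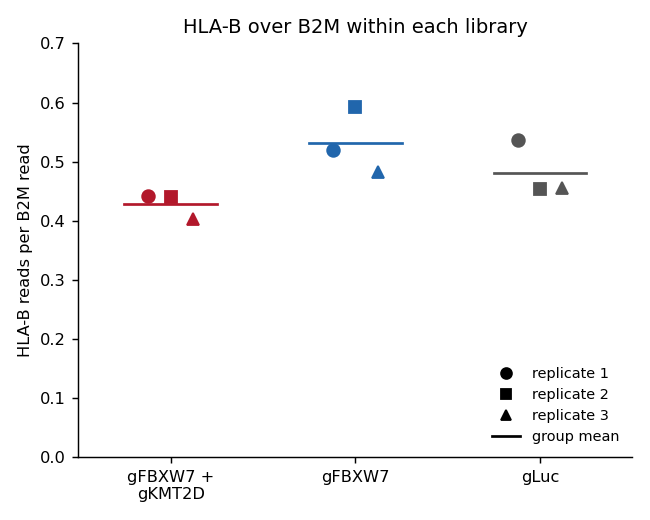
HLA-B reads per B2M read within each library (y axis, from 0) by group (x axis), with group means as lines. The 3 gFBXW7 + gKMT2D libraries lie between 0.403 and 0.442, below all other libraries, which lie between 0.453 and 0.592. How often other gene pairs separate in this way was not computed.

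The chains of the peptide transporter were measured very unequally. TAP2 (chr6:32821833-32838780, minus strand) had 61, 45.8 and 77.8 CPM in gFBXW7 + gKMT2D cells, 60.6, 64.9 and 54.2 CPM in gFBXW7 cells, and 62.8, 50.1 and 40.4 CPM in gLuc cells. The highest and the second lowest values were both gFBXW7 + gKMT2D libraries. Its log2 fold change was 0.27 (SE 0.22, 95% interval -0.22 to 0.75) in gFBXW7 + gKMT2D against gLuc, 0.04 against gFBXW7, and 0.23 in gFBXW7 against gLuc. TAP2 shares 31.3% of its 50-base words with AL669918.1, an annotated gene that overlaps it. TAP1 (chr6:32845209-32853978, minus strand) was listed with 2, 1 and 2 reads in gFBXW7 + gKMT2D cells, 0, 0 and 0 in gFBXW7 cells, and 0, 2 and 3 in gLuc cells. Counts this low are at or under 3 reads, the most that a count of 0 allows, equal to 0.156 to 0.179 CPM without TMM scaling in the gFBXW7 libraries, and no fold is given.

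TAPBP (chr6:33299694-33314387, minus strand), which bridges TAP and the heavy chain and edits the peptides loaded, had 32.7, 29.4 and 22.4 CPM in gFBXW7 + gKMT2D cells, 25.4, 33.2 and 36.3 CPM in gFBXW7 cells, and 28.9, 30.1 and 34.7 CPM in gLuc cells. Its log2 fold change was -0.15 (SE 0.18) in gFBXW7 + gKMT2D against gLuc, -0.17 (SE 0.18) against gFBXW7, and 0.02 (SE 0.18) in gFBXW7 against gLuc. TAPBPL, a related peptide editor, had 23.7, 20.3 and 19 CPM in gFBXW7 + gKMT2D cells, 21, 21.3 and 17.4 CPM in gFBXW7 cells, and 21.4, 18.8 and 17.5 CPM in gLuc cells. The chaperone CALR averaged 1462 ± 240 CPM in gFBXW7 + gKMT2D cells, 1713 ± 194 in gFBXW7 cells and 1440 ± 359 in gLuc cells (SD, n = 3 each). The disulfide isomerase PDIA3 averaged 429 ± 34.8 CPM in gFBXW7 + gKMT2D cells, 455 ± 33.8 in gFBXW7 cells and 420 ± 45.2 in gLuc cells. Neither these nor ERAP1, which trims peptides in the endoplasmic reticulum and averaged 38.1 ± 13.5 CPM in gFBXW7 + gKMT2D cells, 36.3 ± 3.14 in gFBXW7 cells and 44.9 ± 9.63 in gLuc cells, passed the test. All 13 listed genes of peptide loading and trimming outside the members were tested, and 0 were called in any comparison, with medians of -0.07, 0.04 and -0.04 on the log2 scale in gFBXW7 + gKMT2D against gLuc, gFBXW7 + gKMT2D against gFBXW7 and gFBXW7 against gLuc.

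PSMB9 (chr6:32844136-32859585, plus strand), an immunoproteasome subunit induced by interferon, was listed with 2, 1 and 8 reads in gFBXW7 + gKMT2D cells, 2, 2 and 4 in gFBXW7 cells, and 4, 1 and 2 in gLuc cells. Its partner PSMB8, its neighbour in the MHC region, had 0 reads in 8 libraries and 4 in the first gLuc library. PSMB10, the immunoproteasome subunit encoded on chromosome 16, was plainly measured, at 148, 90.8 and 249 CPM in gFBXW7 + gKMT2D cells, 198, 147 and 128 CPM in gFBXW7 cells, and 186, 117 and 92.3 CPM in gLuc cells. Its log2 fold change was 0.30 (SE 0.37) in gFBXW7 + gKMT2D against gLuc and 0.045 (SE 0.37) against gFBXW7. Of 7 listed genes of the immunoproteasome and its activators outside the members, 6 were tested, and 0 were called. The constitutive catalytic subunits PSMB5, PSMB6 and PSMB7 had log2 fold changes of 0.24, 0.38 and 0.37 in gFBXW7 + gKMT2D against gLuc, and 0 of the 3 were called in any comparison.

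NLRC5 (chr16:56989485-57083531, plus strand) had 35.2, 39.3 and 19.3 CPM in gFBXW7 + gKMT2D cells, 33.8, 34.3 and 34.3 CPM in gFBXW7 cells, and 32.6, 36.7 and 42.2 CPM in gLuc cells. The 3 gFBXW7 libraries were nearly equal, and 1 gFBXW7 + gKMT2D library lay far below the other 8. The log2 fold change was -0.25 (SE 0.23, 95% interval -0.76 to 0.27) in gFBXW7 + gKMT2D against gLuc and -0.12 (SE 0.23) against gFBXW7. Without the third gFBXW7 + gKMT2D library these became 0.006 and 0.13. The 2 libraries with most NLRC5, the third gLuc and the second gFBXW7 + gKMT2D, were the 2 with least B2M, HLA-B and TAP2. These 2 also had the lowest ribosomal protein shares, 5% and 5.43% of reads. Over the 9 libraries, Pearson's r with NLRC5 was 0.74 for TAPBP. It was -0.92 for HLA-E, -0.83 for TAP2, -0.82 for B2M, -0.51 for HLA-B and -0.50 for HLA-C. Whether NLRC5 acts on these genes here was not tested.

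Regulators of class I outside the members were also measured. IRF1, an interferon-induced activator, had 35.6, 30.5 and 37.4 CPM in gFBXW7 + gKMT2D cells, 38.3, 38.4 and 40.5 CPM in gFBXW7 cells, and 33.5, 31.6 and 31.5 CPM in gLuc cells. The gFBXW7 libraries were above all others, but the log2 fold change of 0.28 (SE 0.12) in gFBXW7 against gLuc did not pass the test (adjusted p = 0.96). RFX5, a subunit of the X box complex, had 175, 201 and 139 CPM in gFBXW7 + gKMT2D cells, 188, 206 and 205 CPM in gFBXW7 cells, and 203, 211 and 238 CPM in gLuc cells, at -0.34 on the log2 scale in gFBXW7 + gKMT2D against gLuc (SE 0.15), which did not pass (adjusted p = 0.9). Of 13 listed genes of interferon signalling and 8 of the X and Y box complex, all were tested and 0 were called in any comparison.

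The class II side of antigen presentation gave the one call in these lists. Of 13 class II genes listed, the 8 tested were all lower in gFBXW7 + gKMT2D cells, and CD74 alone was called. Of all tested genes, 0.0528% were called against gLuc and 0.0603% against gFBXW7. The list was chosen with earlier results of these data known, so these counts are a description and no independent result. Their median log2 fold change was -0.89 against gLuc and -0.93 against gFBXW7. CD74, the invariant chain of class II, had 61.3, 61.3 and 60.9 CPM in gFBXW7 + gKMT2D cells, against 115, 152 and 143 CPM in gFBXW7 cells and 141, 144 and 167 CPM in gLuc cells. It fell in gFBXW7 + gKMT2D cells by 1.30 on the log2 scale against gLuc (SE 0.14, adjusted p = 0.013) and by 1.16 against gFBXW7 (SE 0.14, adjusted p = 0.027). CD74 stayed lower in these comparisons under all 10 other settings and with each library left out, but the call did not always hold. Against gLuc it held in 7 of 10 other settings and with 4 of 9 libraries left out (adjusted p up to 0.14 and 0.12), and against gFBXW7 in 6 of 10 and with 1 of 9 (up to 0.2 and 0.24). The libraries that could be left out with the call kept were, against gLuc, the first or the second gFBXW7 and the second or the third gFBXW7 + gKMT2D, and against gFBXW7 the third gFBXW7 + gKMT2D. Both calls were lost with the replicate block, on RPKM and with the 6 compared libraries alone. CIITA, the class II activator, had 7.46, 9.73 and 7.53 CPM in gFBXW7 + gKMT2D cells, against 9.93, 11.4 and 12.6 CPM in gFBXW7 cells and 11.6, 11.8 and 17.1 CPM in gLuc cells, at -0.71 on the log2 scale against gLuc (SE 0.20), which did not pass (adjusted p = 0.9). The members had a median of 0.06 against gLuc and -0.12 against gFBXW7, beside 0 and 0.02 over all tested genes, and with 1 library left out these ran from -0.05 to 0.22 and from -0.21 to -0.05. Whether class I and class II differ in their change was not tested. In gFBXW7 against gLuc the median of the members was 0.16, with 0.08 to 0.26 when 1 library was left out, beside -0.004 over all tested genes.

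The 95% intervals show what size of change these libraries leave possible. Over the 7 members they ran from -0.76 to 0.75 in gFBXW7 + gKMT2D against gLuc, from -0.81 to 0.52 in gFBXW7 + gKMT2D against gFBXW7 and from -0.64 to 0.76 in gFBXW7 against gLuc, on the log2 scale. Changes within these bounds could not be told from 0 with this spread between replicates, which is not to say that they are absent.

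**Figure D4:**
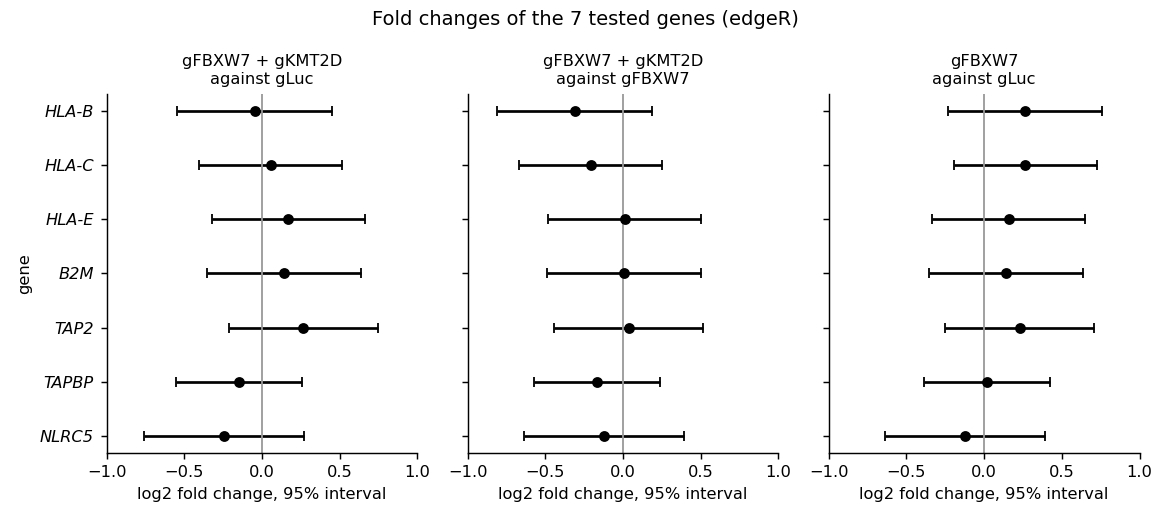
Log2 fold change (x axes) of each of the 7 tested genes (y axis) in the 3 comparisons, with 95% intervals from the edgeR fit as bars. Every interval holds 0, and together they run from -0.81 to 0.76.

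The members also varied between libraries of the same group. Over the 9 libraries the levels of HLA-B, HLA-C, HLA-E, B2M and TAP2 went up with the share of reads from ribosomal protein genes, which ran from 5% to 11.2%, and those of TAPBP and NLRC5 went down. Pearson's r between that share and log2 CPM was 0.93 for B2M (exact permutation p = 0.00019, adjusted 0.00045) with Spearman's rho of 0.93 (exact permutation p = 0.00075, adjusted 0.0029). For TAP2 it was 0.94 (exact permutation p = 0.00014, adjusted 0.00045) with rho of 0.85 (exact permutation p = 0.0061, adjusted 0.0085). NLRC5 gave -0.92 (exact permutation p = 0.00015, adjusted 0.00045) with rho of -0.93 (exact permutation p = 0.00082, adjusted 0.0029). HLA-E gave 0.90 and rho 0.90 (exact permutation adjusted p = 0.0041 and 0.0047), HLA-C 0.77 and 0.85 (0.017 and 0.0085), HLA-B 0.73 and 0.82 (0.024 and 0.013) and TAPBP -0.73 and -0.68 (0.024 and 0.05). These 7 relations were adjusted as 1 family, with two-sided p-values. The share was chosen after values were seen, so the p-values are descriptive and test no planned relation.

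Without the libraries of lowest and highest share, the third gLuc and the third gFBXW7 + gKMT2D, r over the other 7 was 0.87 for B2M, 0.90 for TAP2, 0.96 for HLA-C, 0.87 for HLA-B and -0.86 for NLRC5, but 0.61 for HLA-E and -0.27 for TAPBP, so the relation of TAPBP rests on those 2 libraries. With each group's mean removed it ran from 0.89 to 0.96 for the genes that went up, and was -0.73 for TAPBP and -0.91 for NLRC5. Nothing here is particular to class I: of all 13262 tested genes, 23.5% had an r of at least 0.73 with the share and 25.8% an r of -0.73 or below. The share, the TMM factor and the members come from the same libraries, and the part that RNA quality or growth state plays was not tested.

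**Figure D5:**
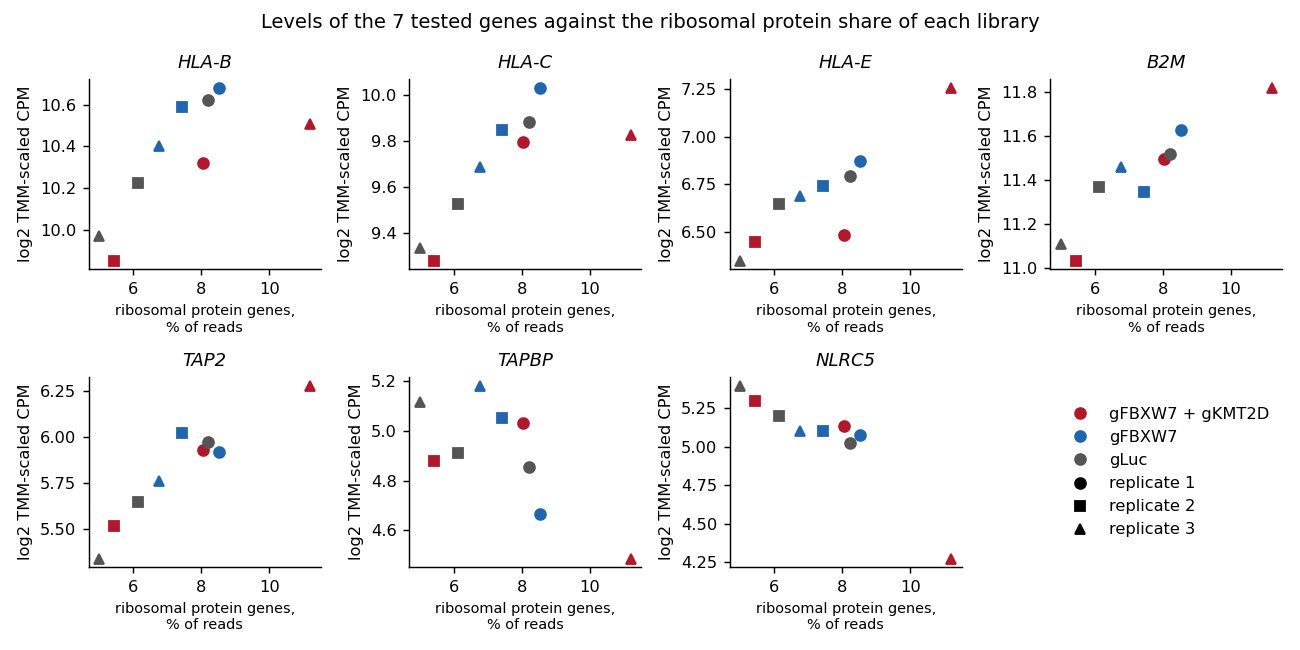
Log2 TMM-scaled CPM of the 7 tested genes (y axes, each with its own range) against the percent of reads from ribosomal protein genes (x axes) in the 9 libraries, coloured by group with a symbol for each replicate. B2M, TAP2 and the heavy chains go up and NLRC5 and TAPBP go down over a share of 5% to 11.2%.

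When 1 surrogate variable, a fitted axis of the variation shared by many genes and not set by group, was added to the edgeR fit, standard errors of the members shrank to between 0.09 and 0.13. HLA-B was then -0.35 in gFBXW7 + gKMT2D against gFBXW7 (SE 0.10, adjusted p = 0.1) and -0.23 against gLuc (SE 0.10, adjusted p = 0.51). HLA-C was -0.235 in gFBXW7 + gKMT2D against gFBXW7 (SE 0.10, adjusted p = 0.28). None of the 7 members was called there either, beside 0.415%, 0.935% and 0% of all tested genes in gFBXW7 + gKMT2D against gLuc, gFBXW7 + gKMT2D against gFBXW7 and gFBXW7 against gLuc.

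The genes whose pattern was most like the mean of the 7 members over the 9 libraries, among 9903 genes outside the lists, were TRAPPC3 (r = 0.993), SIGIRR (r = 0.986), U2AF1L5 (r = 0.986), U2AF1 (r = 0.986) and CCNDBP1 (r = 0.982). TRAPPC3, a subunit of a vesicle tethering complex, ran from 35.6 to 57.4 CPM. U2AF1 and U2AF1L5 are near-identical copies with equal ranges of 164 to 278 CPM, so their counts are uncertain. The mean joins TAPBP and NLRC5 with HLA-B, HLA-C, HLA-E, B2M and TAP2, which went the opposite way over the libraries. Pearson's r with NLRC5 was -0.92 for HLA-E and -0.82 for B2M, so the mean partly cancels and need not follow any single member. Likeness to it is therefore not shown to be likeness to the heavy chains or B2M. These likenesses are a description of 9 libraries that share the variation described above.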

How the data were processed

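Reads of strand-specific polyadenylated RNA libraries had been trimmed with Trimmomatic, aligned to GRCh38 with STAR and counted with featureCounts, per the submitters' processing notes, which also name DESeq2 and give no versions or settings; the annotation is not given in the sources used here. The authors deposited 1 table with whole-number counts, RPKM values and a gene length for each of 38478 gene rows. The deposited RPKM could be recomputed from the deposited counts, the listed length and the library total. An unnamed row of library totals was left out.

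The counts were tested with edgeR 4.0.16 in R 4.3.3: genes passing filterByExpr with the groups (13262), TMM scaling, 1 quasi-likelihood fit of all 9 libraries with group alone, and Benjamini-Hochberg adjustment over all tested genes at 0.05. CPM and log2 CPM (prior count 2) use TMM-scaled totals, and fold changes carry SE and 95% intervals from this fit. Counting floors of 3 reads cover counting error only. Listed lengths were compared with GENCODE v29 exon bases, and symbols matched for 24136 rows (62.7%). Promoters come from RefSeq.

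Every member was named, as were the targeted genes and fixed partners (PSMB8, PSMB10, TAPBPL, ERAP1, CALR, PDIA3, IRF1, RFX5, CIITA and CD74), every called gene of the lists, and the 5 genes most like the members with a mean log2 CPM of at least 2. The ubiquitous MHC genes, list members given as examples and the relation to the ribosomal protein share were chosen after values were seen. The members and lists were chosen with earlier results of these data known. Of 3 ratios planned, HLA-B over B2M alone was computed, since TAP1 and PSMB9 were at or near 0 reads, and its p-values were adjusted over 3 comparisons. Some genes of the planned lists are not reported here. Replicates differed by more than sampling noise, with chi-square per degree of freedom of 6.36 to 231. The code was tested on simulated counts, with some genes changed in gFBXW7 + gKMT2D alone. Against gLuc and against gFBXW7, it called 77% and 81% of 3-fold changes and 42% and 47% of 2-fold changes. Unchanged genes gave 3 and 7 false calls. Alternatives were other scalings, no filter, a replicate block, 1 surrogate variable (sva 3.50.0), removal of a gene length trend, DESeq2 1.42.0, limma 3.58.1 (voom, and RPKM on a log2 scale after adding 1), a fit restricted to the 6 libraries of a comparison, and leaving out each library.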

Additional observations from a re-analysis of the deposited data

How the results depend on the processing

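No member was called under any of the 10 alternatives or with any library left out: the lowest adjusted p was 0.1 over 210 member values and 0.27 over 189 values with a library left out. Of those, 190 and 168 kept their sign. Directions near 0 turned, and the cause was not tested. In gFBXW7 + gKMT2D against gLuc, HLA-B was 0.049 with the gene length trend removed, HLA-C -0.018 by limma on log2 RPKM plus 1, and with 1 surrogate variable HLA-C was -0.098, HLA-E -0.060 and B2M -0.064. In gFBXW7 + gKMT2D against gFBXW7, HLA-E was -0.005 with the replicate block, -0.052 with the surrogate variable, -0.033 by limma-voom and -0.056 on RPKM; B2M was -0.003 with no filter and by voom, -0.008 with the block, -0.047 with the surrogate variable and -0.059 on RPKM; TAP2 was -0.016 with the surrogate variable and -0.011 on RPKM. In gFBXW7 against gLuc, the surrogate variable gave -0.008 for HLA-E, -0.017 for B2M and 0.078 for NLRC5, and RPKM -0.016 for TAPBP.

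With each library left out in turn, gFBXW7 + gKMT2D against gLuc ran from -0.194 to 0.147 for HLA-B, -0.051 to 0.222 for HLA-C, -0.141 to 0.310 for HLA-E, -0.056 to 0.326 for B2M and -0.445 to 0.006 for NLRC5. Against gFBXW7 the range was -0.295 to 0.151 for HLA-E, -0.191 to 0.186 for B2M, -0.161 to 0.211 for TAP2 and -0.321 to 0.134 for NLRC5. TAPBP in gFBXW7 against gLuc ran from -0.090 to 0.156.

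Over all genes, gFBXW7 + gKMT2D against gLuc called 7, and 21 with no filter, 2 with the replicate block, 55 with the surrogate variable, 24 by DESeq2, 4 on RPKM, 2 with the 6 libraries alone and 2 to 8 with a library left out. Against gFBXW7 it called 8, and 5 with upper quartile scaling, 33 with no filter, 2 with the block, 124 with the surrogate variable, 5 with the length trend removed, 32 by DESeq2, 2 on RPKM, 0 with the 6 libraries alone and 0 to 7 with a library left out. In gFBXW7 against gLuc, DESeq2 called 1. Deviations from the group mean of log2 CPM correlated from -0.586 to 0.454 between same-numbered libraries, above 0.1 in 4 of 9 pairs. The third gLuc and the second gFBXW7 + gKMT2D library, with different numbers, gave 0.72. These values do not show whether the numbers pair the samples. TAP1 and PSMB9 had 0 to 8 reads a library, too few for a test; why they are so low was not tested.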
